A study of Homo sapiens with 5 samples.

Results

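Gene deserts are long stretches of the genome without protein-coding genes, and open chromatin inside them lies far from any promoter of such a gene. The gene desert hotspots described here are regions of dense ATAC-seq reads whose midpoint falls in no protein-coding gene and more than 100 kb from every protein-coding transcription start site (TSS). Of 181723 hotspots in the pooled MCF10A list, 30749, or 16.9%, met these conditions. Genes and start sites were those of GENCODE release 44 on hg38. Chromosome 20, chromosome 5 beyond 120 Mb, chromosomes X and Y and the surroundings of assembly gaps (100 kb on either side of gaps of 1 kb or more) were left out, and this removed 8156 hotspots that lay as far from a start site. Position alone chose the members, so their scores, sequences and other annotations were free to vary.

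MCF10A is an immortalized, non-tumorigenic line of human mammary epithelial cells that grows with features of basal cells. The line is known to lack the CDKN2A region at 9p21 and to carry extra copies of the MYC region at 8q24, and copy number was not measured here. The study set out to find transcription factor motifs in the open chromatin of breast-derived cells. ATAC-seq marks open DNA by inserting adapters with the Tn5 transposase. Cells of 5 replicate libraries, all untreated and below passage 30, grew in a medium of horse serum (5%), insulin (10 µg/ml), cholera toxin (100 ng/ml, an agent that raises cAMP), hydrocortisone (0.5 µg/ml, a ligand of the glucocorticoid receptor) and EGF (20 ng/ml, a growth factor whose receptor signals to AP-1). The authors pooled the reads of these 5 libraries before they called hotspots, so every hotspot has 1 score and no replicate error. All values below are therefore descriptions of 1 list, and no test was made. The 95% Wilson intervals given in brackets cover counting error only. The depth of the libraries is unknown here. As a check of the label, 10 of 12 epithelial and basal genes had a hotspot within 1000 bp of a start site, and KRT14 and TP63 had none, while none of 2 haematopoietic and none of 2 hepatic genes had one. The share over all protein-coding genes was not set beside these counts, so the check is a limited one.

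Distal open chromatin mostly marks enhancers, which are short stretches of DNA where transcription factors bind and act on genes over a distance, and sites of the insulator protein CTCF, which anchors chromatin loops. Deserts that flank developmental regulators are known to hold many such enhancers. AP-1, a dimer of FOS and JUN proteins, binds enhancers in most epithelial cells, and RUNX and TEAD factors often share those enhancers with it. Deserts also hold genes of long non-coding RNAs (lncRNAs), microRNAs and pseudogenes, with start sites of their own, and repeated sequence such as centromeric satellites and recent duplications.

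The sequences below show the kinds of site on which the results turn. Each is the central 120 bp of a high-scoring single-copy member, with matches to the consensus of AP-1, CTCF, TEAD, RUNX or the glucocorticoid receptor in capitals. The plus strand of hg38 is given, 5′ to 3′, and sites on either strand are marked. The first lies between HS3ST3B1, a heparan sulphate sulphotransferase, and PMP22, a myelin protein, and its hotspot scored 47.3. The second lies between TP63, the master factor of basal epithelium, and P3H2, and scored 42.8. It holds an AP-1 and a RUNX site within 1 window. The third belongs to a cluster of members around MIR205HG and scored 18.02.
AP-1 at chr17:14738343-14738462: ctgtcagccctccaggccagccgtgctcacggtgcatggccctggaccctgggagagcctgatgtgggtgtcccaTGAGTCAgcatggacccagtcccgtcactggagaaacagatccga
AP-1 and RUNX at chr3:189937758-189937877: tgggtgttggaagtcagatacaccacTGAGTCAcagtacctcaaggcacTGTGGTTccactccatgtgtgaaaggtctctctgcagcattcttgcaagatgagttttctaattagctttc
AP-1 near MIR205HG at chr1:209389382-209389501: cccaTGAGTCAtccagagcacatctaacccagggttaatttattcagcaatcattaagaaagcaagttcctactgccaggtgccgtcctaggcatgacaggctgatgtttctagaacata

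The next windows show a CTCF site, a TEAD site and a glucocorticoid receptor site. The CTCF window lies in the lncRNA gene LNC-LBCS between RNF144B and ID4 and its hotspot scored 33.8. The TEAD window lies between SLITRK6 and SLITRK5, which code for synaptic adhesion proteins, and scored 34.9. The glucocorticoid receptor window lies between KLF4, an epithelial transcription factor, and ACTL7B, and scored 17.6. All 6 hotspots were single-copy over 100% of their 32-mers.
CTCF at chr6:19538212-19538331: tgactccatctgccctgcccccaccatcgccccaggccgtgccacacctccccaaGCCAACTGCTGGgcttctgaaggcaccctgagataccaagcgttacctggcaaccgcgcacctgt
TEAD at chr13:87124181-87124300: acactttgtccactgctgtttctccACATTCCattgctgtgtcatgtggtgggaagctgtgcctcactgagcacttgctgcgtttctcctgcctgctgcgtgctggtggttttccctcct
Glucocorticoid receptor at chr9:108040858-108040977: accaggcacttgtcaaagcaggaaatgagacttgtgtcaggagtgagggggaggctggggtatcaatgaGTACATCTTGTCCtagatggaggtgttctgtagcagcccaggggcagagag

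Gene desert hotspots were set beside 3 other kinds, namely promoter hotspots (within 1000 bp of a protein-coding start site, 18412), those in the rest of protein-coding genes (74577) and intergenic ones within 100 kb of a start site (49829). Deserts took up 813 Mb, which is 30.9% of the bases known on the chromosomes used, and held 37.8 hotspots per Mb. The remaining territory of these chromosomes, which took in the surroundings of assembly gaps, held 69.8 per Mb. The density ratio was thus 0.542 (0.535 to 0.548). Each of the 21 chromosomes had a lower density in deserts than outside them, with ratios from 0.247 on chromosome 19 to 0.718 on chromosome 8.

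Density fell with distance from the nearest start site. Between 100 and 200 kb the deserts held 54.7 hotspots per Mb, between 300 and 500 kb 36.3, between 1000 and 2000 kb 18.4, and beyond 2000 kb 8.99. The median member lay 255 kb from a start site and the farthest 4900 kb. At the limit itself the nearest members inside were 2 single-copy hotspots, between MYEOV and CCND1 (score 5.50) and between ARRDC4 and IGF1R (11.9), and 3 multicopy ones, between ATXN1 and STMND1 (21.8), IPO11 and HTR1A (4.48), and AKAP11 and TNFSF11 (7.56). Just outside it lay hotspots of scores 4.91, 24.7, 4.60, 5.61 and 6.01, at most 100 kb from a start site.

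**Figure D1:**
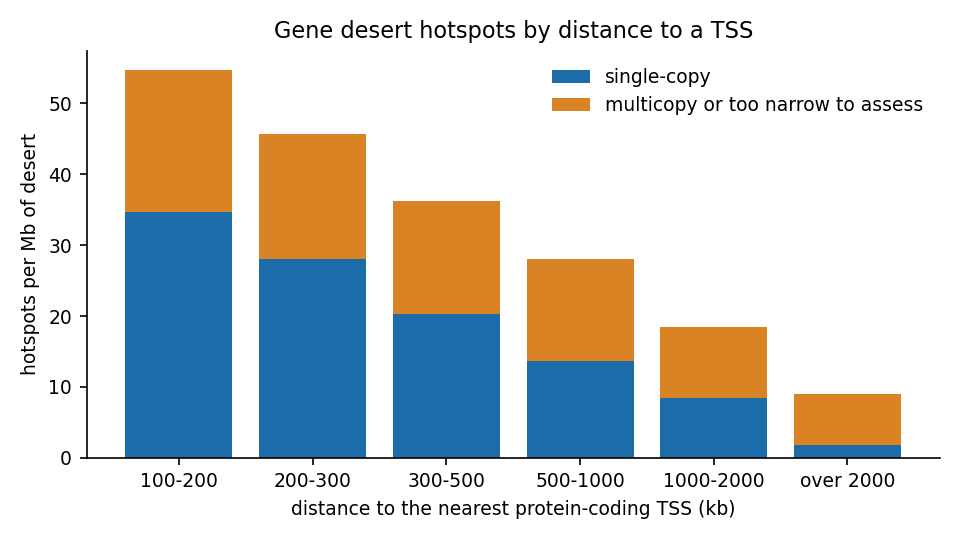
Hotspots per Mb of desert (vertical axis) in 6 ranges of distance to the nearest protein-coding start site in kb (horizontal axis), with the single-copy part in blue and the rest in orange. Both parts fall from left to right, the single-copy part from 34.7 to 1.87 per Mb.

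Many of these hotspots lay in sequence with further copies in the genome. A hotspot is called single-copy here where at least 50% of its 32-mers (overlapping words of 32 bases) occur once in the assembly, and multicopy otherwise. This division was chosen after values had been seen. Among the members 17764 were single-copy, 12488 were multicopy and 497 were narrower than 32 bp and were not assessed. The single-copy share was 57.8% (57.2 to 58.3), against 69.2% of all hotspots of the list, 66.5% of intergenic hotspots near genes and 94.4% of promoter hotspots. For single-copy hotspots alone, deserts held 21.8 per Mb and the remaining territory 49.8 per Mb, a ratio of 0.439. Multicopy hotspots had densities of 15.4 and 19.5 per Mb. With distance the single-copy share fell from 63.5% at 100 to 200 kb to 20.8% beyond 2000 kb, where 32 of 197 members lay in satellite-like arrays.

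Satellite-like arrays, defined as 100-kb bins in which at least 80% of 16-mers occur 20 times or more, made up 48.2 Mb of the desert territory. They held 128 members, of which 126 were multicopy, or 2.66 per Mb. Without these arrays the deserts held 40.0 members per Mb. Of the 128 members, 76 lay between 1000 and 2000 kb from a start site and 32 beyond 2000 kb. Densities by distance were taken over all bases, with these arrays included. Aligned reads are hard to place in such arrays. The part that this played in the low density, and in its fall with distance, was not tested.

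The score of Hotspot, as the authors' run wrote it, had a median of 5.82 in the deserts (quartiles 4.86 and 8.28) and of 5.81 over the whole list. Intergenic hotspots near genes had a median of 5.66, those in genes 5.61 and promoter hotspots 13.8. Members were narrower, with a median width of 245 bp against 287 bp over the list and 665 bp at promoters. Their median G and C content was 50.4% against 52.8% over the list, and 3.51% of them met the criteria of a CpG island (at least 200 bp, 50% G and C and a CpG ratio of 0.6) against 10.5% over the list, 5.96% of intergenic hotspots near genes, 4.57% of those in genes and 62.2% of promoter hotspots.

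High scores in the deserts were concentrated in multicopy sequence. The top decile of all scores began at 16.1 and held 10.1% of the list, and 2184 members reached it, or 7.10% (6.82 to 7.40). This share was 3.72% (3.45 to 4.01) for single-copy and 11.9% (11.3 to 12.5) for multicopy members. The same order held for intergenic hotspots near genes (5.15% and 10.4%) and for those in genes (3.52% and 8.84%). It is thus not particular to deserts. At promoters the order was reversed, with 46.4% of single-copy and 17.6% of multicopy hotspots. When the members were ranked by score and cut into deciles of their own, 24.1% of the lowest decile and 65.1% of the highest were multicopy. Among the 100 members with the highest scores 96 were multicopy, and all of the top 10 were. Single-copy members had a median score of 5.38 and multicopy members one of 6.84. The part that reads of other copies played in these scores was not tested.

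The 10 highest scores stood at a few such places. The highest, 669.6, belonged to an 889-bp hotspot between NUPR2 and ZNF479 on chromosome 7 with 69.5% G and C, and a neighbour in the same desert scored 209.9. A hotspot of 5217 bp between the cadherin genes CDH18 and CDH12 scored 222.3 and overlapped GUSBP1, a pseudogene of the enzyme beta-glucuronidase. Others lay between LYSMD4 and ADAMTS17 (203.5), ZNF716 and ZNF722 (188.3 and 143.1), PLD5P1 and ZNF33B (166.0), HTR2A and SUCLA2 (162.7), UNC13C and RSL24D1 (147.1) and CBLB and CCDC54 (143.1). In each of these 10 at most 27.4% of the 32-mers occurred once. The 5 members farthest from a start site, 4871 to 4900 kb from OR11H1 on chromosome 22, were also multicopy and scored 11.2 to 24.0.

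Single-copy members of high score were of several kinds. The highest, between MYO16 and IRS2 on chromosome 13, scored 125.1 and had 71.4% of its 30-mers in common with mitochondrial DNA. The part of mitochondrial reads in such scores was not tested. In all, 16 members shared a 30-mer with the mitochondrial genome, against 54 in the whole list, and 1 between CA10 and KIF2B (40.6) overlapped the mitochondrial pseudogene MTCO1P40. Another kind stood at the start of 3 pseudogenes of the FAM86 family, FAM86DP (56.8), FAM86EP (54.7) and FAM86C2P (49.8), where 51.8 to 57.3% of 32-mers occurred once. The highest member with 100% of its 32-mers occurring once lay between KCNJ18 and WSB1 (73.3) and shared 2.60% of its 30-mers with mitochondrial DNA, and the next, between ZFAT and KHDRBS3 (54.1), stood at a lncRNA start and held a cAMP response element. Other fully single-copy members were the AP-1 window between HS3ST3B1 and PMP22 shown above, a hotspot between MTRR and SEMA5A at the start of the microRNA host gene MIR4458HG (46.6), another between STARD13 and RFC3 (45.5) and the start of LINC00472 between OGFRL1 and RIMS1 (41.3). Members in sequence of partly repeated content lay between SHH, the morphogen, and RNF32 (69.2) and between MKI67, the gene of the proliferation antigen Ki-67, and the DNA repair gene MGMT (62.8).

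Motifs were searched as exact letters on both strands in the central 120 bp, and the same windows centred 2 kb to either side served as flanks. These flanks were not matched to the centres in G and C content or in copy number. The part that either played in the differences between centres and flanks was not tested. The AP-1 site (TGACTCA) was present in 2041 members, or 6.64% (6.36 to 6.92), against 5.81% of all hotspots and 1.80% of the flanking windows. Nearly all of these members were single-copy: 1901 single-copy members held the site, or 10.7% (10.3 to 11.2), with 1.965% in their flanks. In multicopy members the share was 1.11% (0.944 to 1.31), below the 1.56% of their flanks. Single-copy hotspots elsewhere held the site in 8.57% (8.27 to 8.88) of intergenic cases near genes, in 8.52% (8.28 to 8.76) inside genes and in 2.41% at promoters. The interval for the desert members lay above those of the other 3 groups. Of 35116 RefSeq promoter windows, which are longer (300 bases), 4.95% hold the same letters.

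CTCF sites (CCANNAGNNGGC) showed another order. They were present in 306 members, or 0.995% (0.890 to 1.11), against 1.53% of all hotspots. Single-copy members held the site in 1.49% (1.32 to 1.67), single-copy intergenic hotspots near genes in 2.75% (2.58 to 2.94) and those in genes in 2.09% (1.97 to 2.21), so the interval for the deserts lay below both. The flanks held it in 0.273%, 0.450% and 0.486% of windows in the same order. Relative to these flanks the shares were 5.44 times as high in the deserts, 6.12 times near genes and 4.29 times in genes, so that the order of deserts and genes turned. These letters are a strict form of the CTCF motif, and sites that deviate from them were not counted.

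The share with an AP-1 site rose with the score of single-copy members. It was 6.19% (5.16 to 7.41) in the lowest decile, 9.40% in decile 5 and 21.4% (19.6 to 23.4) in the highest, while the flanks held it in 1.72% and 2.36% of the lowest and highest deciles. The window had the same length in every decile. Over the whole hotspot the shares were 8.27% and 51.8%, with median widths of 181 and 497 bp. Multicopy members had 0.721% in the lowest and 1.68% in the highest decile. RUNX sites went from 2.42% to 3.88% and TEAD sites from 2.36% to 3.77% between the lowest and highest deciles of single-copy members. CTCF sites were most frequent in deciles 8 and 9 (2.31% and 2.36%) and had a share of 1.41% in the highest.

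**Figure D2:**
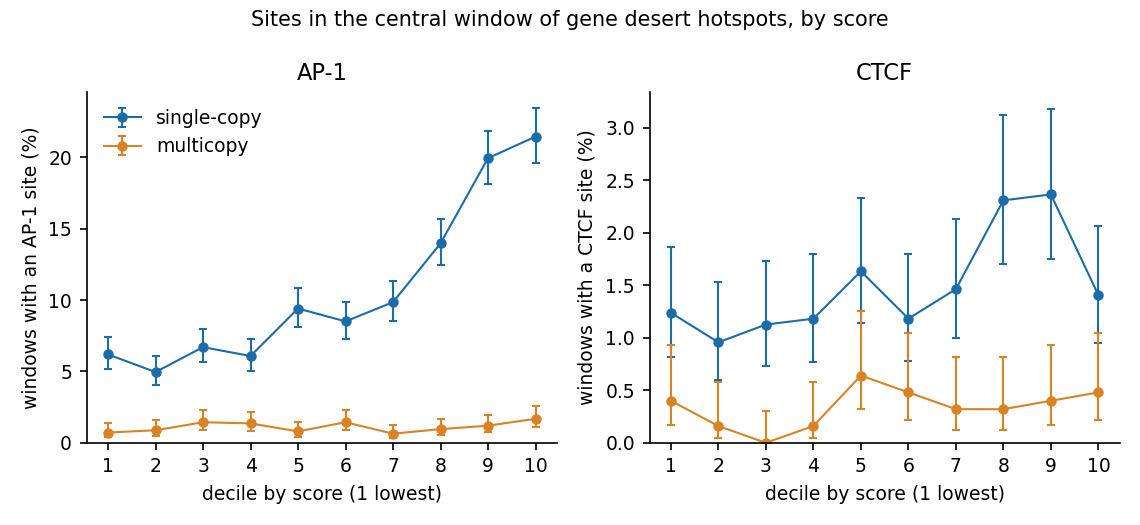
Share of gene desert hotspots with an AP-1 site (left) or a CTCF site (right) in the central 120 bp, in percent, by decile of score from lowest (1) to highest (10), for single-copy (blue) and multicopy (orange) members, with 95% Wilson intervals. The AP-1 share of single-copy members reaches 21.4% in the highest decile and that of multicopy members stays at or below 1.68%.

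Of 19 motifs searched in single-copy members, 11 had an interval above that of the flanks. Beside AP-1 and CTCF these were the epithelial factors TFAP2 (GCCNNNGGC, 5.58% against 2.10% in the flanks) and TEAD (ACATTCC, 2.40% against 1.76%), then RUNX (TGTGGTT, 2.88% against 2.40%), ETS (AGGAAGT, 3.16% against 2.49%), E-box (CACGTG, 1.99% against 1.24%), SP/KLF (GGGCGGG, 1.36% against 0.569%), the p53 family (CATGNNNNNNCATG, which p63 also binds, 0.760% against 0.512%), CEBP (TTGCGCAA, 0.0619% against 0.0141%) and the glucocorticoid receptor. The receptor's palindrome (GNACANNNTGTNC) was present in 56 single-copy members, or 0.315% (0.243 to 0.409), against 0.163% (0.126 to 0.211) of flanks. POU (ATGCAAAT) and STAT (TTCNNNGAA) sites lay below the flanks, with 0.557% against 1.13% and 2.90% against 3.96%. Single-copy hotspots near genes and in genes had similar ratios of centre to flank for several motifs. In deserts, near genes and in genes these were 1.37, 1.44 and 1.40 for TEAD, and 1.27, 1.31 and 1.31 for ETS. For POU they were 0.494, 0.463 and 0.502. Such differences from the flanks are thus not particular to deserts. The p53 family had ratios of 1.48, 0.958 and 1.02. Overlap with the interval of the flanks was seen for the cAMP response element (TGACGTCA), for FOX (TGTTTAC) and NFI (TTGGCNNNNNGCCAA) sites, for the letters of GATA factors (AGATAAG) and for GRHL (AACCGGTT) and SOX (ACAATGG) sites. The cAMP element, which CREB binds, was present in 25 single-copy members, or 0.141% (0.0953 to 0.208), against 0.0647% (0.0431 to 0.0971) of flanks. GRHL sites were present in 9, or 0.0507% against 0.0113%. Both shares were above those of the flanks, but rest on few cases with wide intervals. So does the CEBP share, with 11 single-copy members and intervals of 0.0346 to 0.111% in centres and 0.00601 to 0.0329% in flanks. Multicopy members had other frequent letters, with SOX at 4.90% against 1.86% in their flanks and FOX at 2.72% against 1.89%. Copies of 1 repeat share their letters, so multicopy members are not independent of each other.

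**Figure D3:**
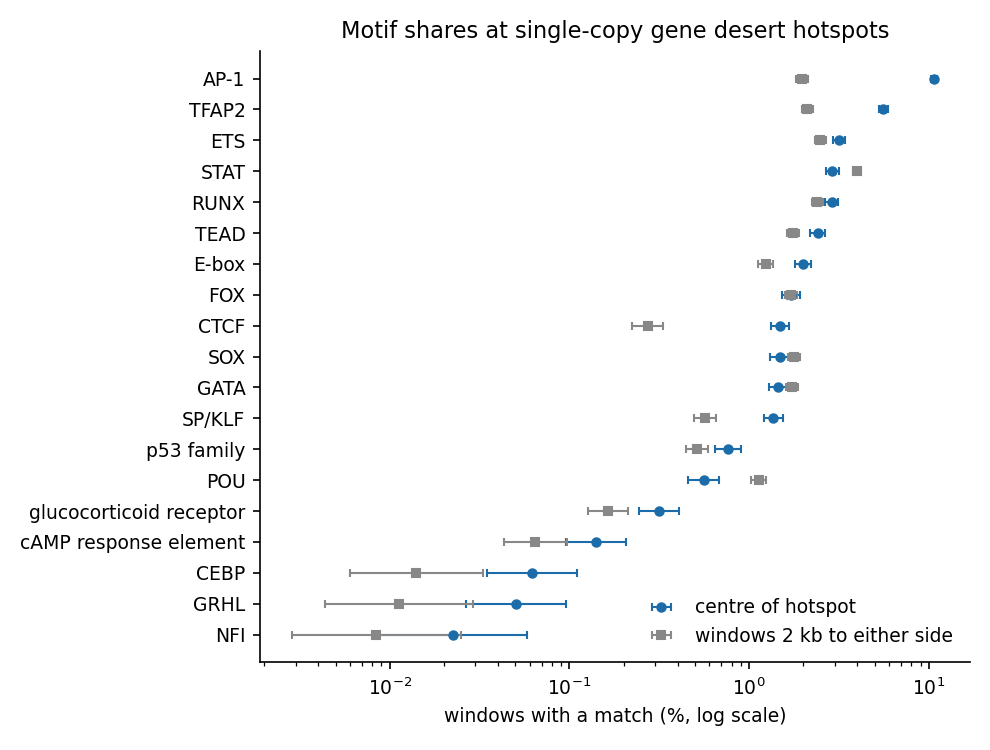
Share of windows with a match to each of 19 motifs, in percent on a log axis, for the central 120 bp of single-copy gene desert hotspots (blue circles) and for windows 2 kb to either side (grey squares), with 95% Wilson intervals. AP-1 and CTCF stand farthest from their flanks among the motifs present in at least 1% of centres.

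In single-copy members AP-1 shares did not fall with distance. Single-copy members between 100 and 200 kb of a start site held the site in 10.0%, those between 300 and 500 kb in 11.5%, those between 1000 and 2000 kb in 11.3% and the 41 beyond 2000 kb in 14.6%, while density fell over the same ranges. Over all members, of which fewer are single-copy at longer distances, the shares in these ranges were 6.88%, 6.86%, 5.69% and 4.57%. CTCF sites were present in 1.59%, 1.40%, 1.05% and 2.44% of single-copy members in these ranges and in 1.77% between 200 and 300 kb, the highest share below 2000 kb.

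The desert territory was made of 1875 unbroken deserts with a median of 9 members, of which 497 were 500 kb or longer. No member was found in 206 deserts, whose median length was 13.9 kb. Deserts of 500 kb or more had a median of 30.8 members per Mb (quartiles 23.2 and 42.2) and of 14.8 single-copy members per Mb (9.76 and 23.9). The most members, 149, lay between VRK1, a nuclear kinase, and BCL11B, a zinc-finger transcription factor, and 127 of them were single-copy. HS6ST1 and RAB6C flanked 146 members, TBC1D22A and TAFA5 123, AGA and TENM3 121, CELF4 and PIK3C3 114, TSN and CNTNAP5 110, TAFA5 and BRD1 108, and C4orf33 and PCDH10 107. Other deserts with as many members were mostly multicopy, such as the one between SPATA31A6 and SPATA31A5 (125 members, 114 multicopy) and the one to the left of TPTE (108 members, 74 multicopy).

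Per Mb, the densest desert of 500 kb or more was that between LRATD2 and POU5F1B at 8q24, upstream of MYC, with 94 members in 564 kb, or 166.8 per Mb, and 72 of them single-copy. All 94 lay inside the lncRNA gene PCAT1, and the highest, with an AP-1 site, scored 39.4. Extra copies of the region and more open chromatin cannot be told apart. Next by single-copy members came the deserts between TAFA5 and BRD1 (108.7 per Mb), the homeobox genes IRX4 and IRX2 (99.3), the neuronal factor gene MYT1L and EIPR1 (99.0), PTPRU and an unnamed gene (98.4) and PTS and NCAM1 (93.9). Members between PLGLB1 and PLGLB2 (131.1 per Mb), RPIA and AQP7B (119.5) and SPATA31A6 and SPATA31A5 (149.1) were dense too, and 67 of 69, 56 of 64 and 114 of 125 of them were multicopy. To the left of GOLGA6L6 lay 105.9 per Mb.

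The 5 longest deserts without a member were satellite-like over 100% of their bases, the longest of 4574 kb between ANKRD30B and ROCK1. Others lay left of GOLGA6L6 and between ZNF716 and ZNF722 and ALG10 and ALG10B. In 15 of the 16 empty deserts of 500 kb or more at least 50% of the bases were satellite-like. Among deserts of 1000 kb or more with under 10% of such bases, limits chosen after values were seen, the lowest density was found between DMRTA1 and ELAVL2 at 9p21, with 6 members in 1089 kb (5.51 per Mb) and 0 of them single-copy. CDKN2B-AS1, a lncRNA gene of the same region, had no member in the 18.8 kb of it that counts as desert. Copy number was not measured here, so a loss of this DNA and closed chromatin cannot be told apart. Next among them came the deserts between NCAM2 and MRPL39 (11.6 per Mb), SERPINB8 and CDH7 (12.1), GNPDA2 and GABRG1 (12.5) and STIM2 and PCDH7 (12.8).

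Deserts were next grouped by the genes that flank them, from 3 lists. The 73 deserts beside genes of synaptic and neuronal adhesion proteins had a median of 23.7 members per Mb and of 10.7 single-copy members, against 41.5 and 21.8 over all deserts. The 70 deserts beside transcription factor genes had medians of 41.2 and 28.01, and the 31 beside genes of epithelial and growth signalling had medians of 43.8 and 29.8. Long deserts have lower densities, so the same was done for those of 500 kb or more. There the single-copy medians were 10.5 (synaptic, 53 deserts), 18.4 (transcription factors, 37), 27.5 (epithelial, 12) and 14.8 over all 497. Over all members the medians of these lists were 22.97, 30.4 and 36.6 per Mb, against 30.8 for all 497. Shares of members with an AP-1 site were 5.51%, 7.14% and 9.46% in the synaptic, transcription factor and epithelial lists, against 6.64% of all desert members. The lists also differ in their share of single-copy members and, among deserts of 500 kb or more too, in the length of their deserts. What part either played in these values was not tested. The desert between SPRY2 and SLITRK1 counts in both the synaptic and the epithelial list.

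Single deserts varied widely within each list. Beside transcription factor genes the densest were those between IRX4 and IRX2 (109.9 members per Mb), IRX2 and IRX1 (91.6) and SPRED2 and the homeobox gene MEIS1 (71.0). Among the sparsest were those of TMEM182 and the neural POU3F3 (16.7) and of DACH1 and MZT1 (16.7). In the epithelial list the densest lay between NDFIP2 and SPRY2, an inhibitor of receptor tyrosine kinase signalling (60.8), GJA1, the gap junction protein connexin 43, and HSF2 (49.9), and KITLG and the ERK phosphatase gene DUSP6 (43.8). The fewest lay between EPHA4 and PAX3 (26.7), the growth factor gene NRG1 and FUT10 (21.7), and SPRY2 and SLITRK1 (19.5). Among synaptic deserts TSN and CNTNAP5 (53.2) and MTPN and CHRM2 (46.3) were of those with the most, and SERPINB8 and CDH7 (12.1), STIM2 and PCDH7 (12.8) and JRKL and CNTN5 (13.3) had the fewest.

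**Figure D4:**
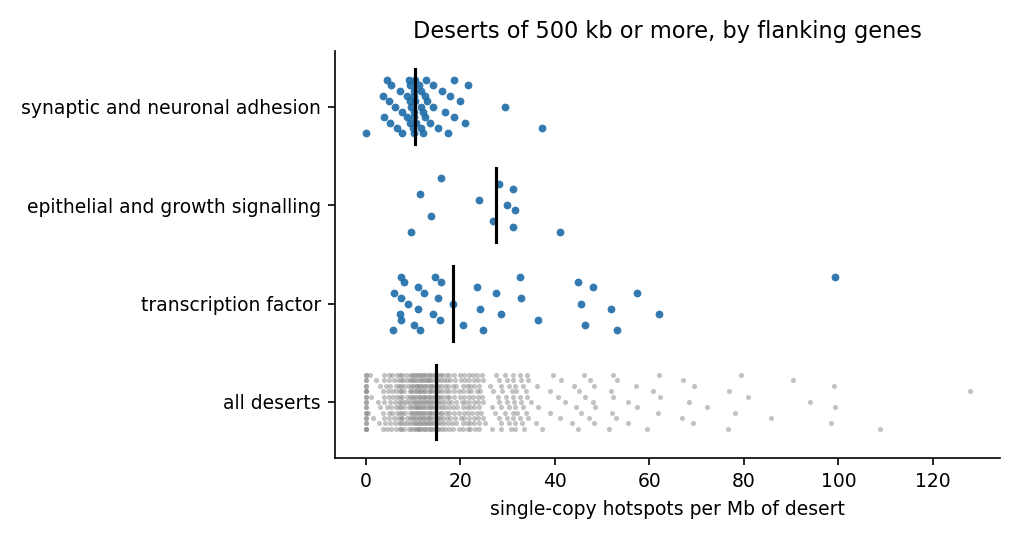
Single-copy hotspots per Mb in each desert of 500 kb or more (1 point a desert), for all 497 deserts (grey) and for those flanked by a gene of 3 lists (blue), with the median as a black line. The medians are 14.8 for all, 18.4 for transcription factor, 27.5 for epithelial and growth signalling and 10.5 for synaptic and neuronal adhesion genes, and the lists overlap widely. Desert lengths differ between the lists.

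Long non-coding RNA genes covered 30.6% of the desert territory and held 10421 members by midpoint, or 33.9% (33.4 to 34.4), against 18.3% of all hotspots. Density was 41.8 members per Mb inside lncRNA genes and 36.0 outside, and 24.7 and 20.6 for single-copy members. Members near the start of a lncRNA differed more from the others. Within 1000 bp of such a start lay 1137 members, 790 of them single-copy. These 790 had a median score of 5.99, against 5.34 for the other single-copy members, and 12.2% of them against 3.33% reached the top decile of all scores. CpG islands made up 10.9% against 1.24%, SP/KLF sites, which are frequent in promoters, were present in 4.30% against 1.23%, and AP-1 sites in 10.3% against 10.7%.

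Named lncRNA genes of cancer loci were read from a list of 21, of which 18 were found under their name, 15 reached into desert territory and 14 had a member. PCAT1 held 94 members, PVT1, the neighbour of MYC, 53 with a highest score of 37.8, LINC00511 43 (24.5), CASC15 33 (51.3) and CASC19 31 (27.5). The 3 genes PCAT1, CASC19 and PRNCR1 overlap each other, so their members are partly the same. MIR4435-2HG had 33 members and CYTOR 19, but just 4 and 1 of these were single-copy. LINC-PINT had 22, MIR100HG and SOX2-OT 13 each, PRNCR1 3, MIR205HG and LINC01116 2 each and CASC17 1. LINC00511 lies in the desert between SOX9 and SLC39A11, where 48 members gave 113.0 per Mb, while the desert on the other side of SOX9, towards KCNJ2, had 24.0 per Mb. Between MYC and GSDMC, the desert that holds most of PVT1, lay 107 members. The SOX9 and MYC deserts were chosen after their values were seen.

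Deserts also hold microRNA genes, whose products silence messenger RNAs through the seed, bases 2 to 8 of the mature strand. The mature sequences from RefSeq (GRCh38.p14) of 4 whose hairpin lay within 1000 bp of a single-copy member are given with the seed in capitals, because they include the highest scores of such members and the epithelial miR-205. No pair of them shares a seed.
hsa-miR-205-5p: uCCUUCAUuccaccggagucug
hsa-miR-148a-3p: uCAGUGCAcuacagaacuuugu
hsa-let-7i-5p: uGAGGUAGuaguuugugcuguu
hsa-miR-193b-3p: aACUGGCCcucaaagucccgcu

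Among single-copy members within 1000 bp of a hairpin the highest score was 25.9 at MIR148A, 25.5 at MIRLET7I, 17.3 at MIR193B, 12.004 at MIR137, 11.9 at MIR365A and 7.55 at MIR205. MIR183 had 4.86. Of 200 microRNA genes in deserts 17 overlapped a member of either kind, and the highest score of these members was 30.0. Overlap was found for 197 of 555 unprocessed pseudogenes (35.5%), which arise by duplication, and for 209 of 2221 processed pseudogenes (9.41%), which are copied from messenger RNA. Of 580 members in unprocessed pseudogenes 436 were multicopy. Small nuclear RNA genes overlapped a member in 6 of 306 cases and immunoglobulin and T-cell receptor genes in 57 of 387. These shares of genes were not set against gene length, which differs between the classes. Their order therefore cannot be read as a difference in open chromatin.

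Members lay farther from other hotspots than the other kinds did. The median distance from a member to the nearest hotspot was 4.60 kb. It was 3.13 kb for intergenic hotspots near genes, 3.515 kb in genes and 2.67 kb at promoters. A neighbour within 12.5 kb was present for 72.9% of members, against 87.8%, 83.9% and 87.0% of these kinds in the same order. Farther than 50 kb from any other hotspot lay 1234 members, or 4.01%, against 0.569% of intergenic hotspots near genes. When single-copy members up to 12.5 kb apart were joined, they formed 10390 groups, of which 6877 were single members. There were 500 clusters of 5 or more, with 19.0% of the single-copy members. AP-1 sites were present in 8.87% of members in these clusters and in 11.6% of those alone. The largest clusters held 21 members between TPTE and POTED, 20 between PLD5P1 and ZNF33B and 18 each between HAAO and ZFP36L2 and between OTOS and GPC1.

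The cluster at MIR205HG, host gene of the epithelial microRNA miR-205, held 15 members over 60.6 kb, all single-copy, with scores from 4.86 to 29.8 and a median of 8.29. It lies between PLXNA2 and CAMK1G, in a desert of 74 members. The highest score stood over the start of MIR205HG, at chr1:209427270-209429152. Next were members of 22.6 and 18.02 upstream of the gene and 1 of 16.02 just downstream. An AP-1 site stood in the central window of 4 of the 15, with scores of 18.02 (the window printed above), 8.29, 5.31 and 5.11. The members of 29.8, 22.6 and 16.02 held none there. Outside the central window an AP-1 site was present in the members of 22.6, 15.4, 7.55 and 6.74. Over all single-copy members the share with a site in the central window was 10.7%, and in clusters of 5 or more it was 8.87%. Searched over the whole hotspot, 20.0% of all single-copy members held the site. In the small desert between TP63 and P3H2 7 members, all single-copy, scored from 4.37 to 42.8 with a median of 8.24. The 2 highest, 42.8 and 21.4, stood well above the others, and the first, 148.02 kb from the nearest start site, is the AP-1 and RUNX window shown above. TP63 itself had no hotspot within 1000 bp of a start site. Both loci were chosen after their values were seen.

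**Figure D5:**
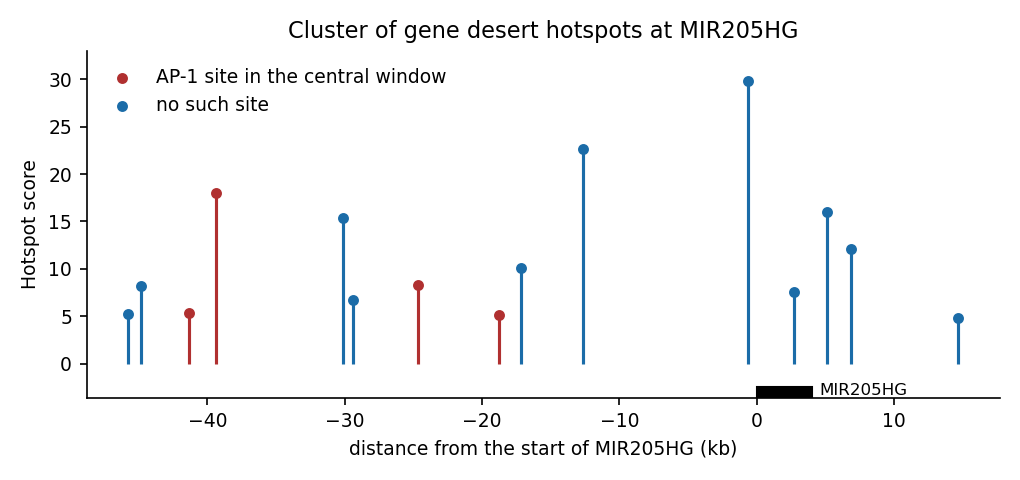
Hotspot score (vertical axis) of the 15 single-copy gene desert hotspots in the cluster at MIR205HG against the distance of their midpoints from the start of the gene in kb (horizontal axis), with members that hold an AP-1 site in the central window in red and the others in blue, and the gene as a black bar. The highest member, 29.8, stands at the start of the gene, and the 4 members with an AP-1 site in the central window lie upstream of it.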

How the data were processed

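Libraries of 5 MCF10A replicates (numbered 1, 2, 3, 5 and 6, 1 group) were read with ATAC-seq in pairs of 75 bases. The authors mapped them to hg38 (Bowtie2), merged the 5 alignments, dropped duplicate reads and ran Hotspot with the false discovery rate set at 0.01. The sources used here state neither a shift of cut sites for Tn5 nor that reads of the mitochondrial genome were taken out before the calls. Each deposited hotspot carries a score from the authors' Hotspot run, and what this unit is relative to is not given in the sources used here. It was used as given, not divided by depth or width. Depth is unknown, and with 1 pooled list there is neither replicate error nor a test.

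Midpoints were compared with 20033 protein-coding genes and 78449 start sites of GENCODE release 44. A desert is an unbroken run of bases that meet the rule. Copy number in the assembly was counted with 32-mers (single-copy) and 16-mers (satellite-like bins) on chromosomes 1 to 22, X and Y. Motifs were exact letters, with windows centred on midpoints because the list holds no summits. A motif match is a description of letters and no evidence of binding. Genes were named by rank: the 10 deserts with most members and most members per Mb, the 5 longest with the fewest, the 10 highest scores, the farthest members, those at the distance limit, and the 3 densest and sparsest deserts of 500 kb or more in each list. A few items that this rule names are not reported here. Alternatives were other distance limits, hotspots above the median score, joined neighbours, no gap margin, other motif windows and overlap rules and, chosen after seeing the data, those on repeated sequence. The members and lists were chosen with earlier results of these data known. The rule, the motif search and the 32-mer count were tested on simulated data. Scripts ran in Python 3.11.15 (numpy 2.4.6, pandas 2.3.3, numba 0.67.0, scipy 1.17.1) and figures were drawn with matplotlib 3.10.9.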

Additional observations from a re-analysis of the deposited data

How the results depend on the processing

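The 7 main results were recomputed under 12 alternative settings, which gave 68 values, of which 31 stayed within the counting interval of the value reported (or within 1.5 times the count) and 37 moved. With a limit of 50 kb the density ratio was 0.613, the CTCF share 1.16% and the lncRNA share 32.9%. With a limit of 200 kb 19137 members remained, the density ratio was 0.467 and the share in the top decile of scores 7.43%. Hotspots above the median score left 15392 members, with a median score of 8.28, 6.02% in the top decile recomputed among them, 8.15% with an AP-1 site and 34.6% in lncRNA genes. Joining neighbours gave a density ratio of 0.560, a median score of 5.94 and a top-decile share of 6.35%. Without the gap margin these were 0.558, 5.92 and 7.59%, and the lncRNA share was 32.7%. In the central 300 bp AP-1 sites were present in 12.3% and CTCF sites in 1.97%, and in the whole hotspot in 12.8% and 2.26%. Leaving out hotspots with at least 50% of their 16-mers in many copies left 18343 members, with a density ratio of 0.448, a median score of 5.61, a top-decile share of 4.01%, AP-1 at 10.4%, CTCF at 1.58% and lncRNA genes at 35.2%. With single-copy hotspots alone these were 17764 members, 0.439, 5.38, 3.73% (with the decile taken over single-copy hotspots), 10.7%, 1.49% and 34.6%. Without satellite-like bins the density ratio was 0.572. Leaving out hotspots that share 30-mers with mitochondrial DNA moved none of the 7 results beyond its interval. The density ratio was below 1 under each setting that recomputed it. The cause of these shifts was not tested beyond what each setting changes by construction.

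The setting that leaves out repeat-masked hotspots was not run, because the reference used here is not repeat-masked, and the settings on 16-mers and 32-mers took its place after the data had been seen. No paired analysis was possible because the pooled list carries no values per replicate, and for the same reason no replicate was left out. Unknown depth limits what the absence of a hotspot shows.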
